A study of Mus musculus with 19 samples.

Results

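A fatty acid is chemically inert inside a cell until coenzyme A is attached to it, and the 10 genes described here encode enzymes that attach that group or take it off again in small-intestinal crypts. Acyl-CoA synthetases use ATP to make the acyl-CoA, and 6 of the genes are synthetases: the long-chain enzymes Acsl1, Acsl3, Acsl4, and Acsl5, and the fatty acid transport proteins Slc27a2 and Slc27a4. Acyl-CoA thioesterases cut the acyl-CoA back to free fatty acid and coenzyme A, and the other 4 genes, Acot1, Acot2, Acot12, and Acot13, are thioesterases. The genes were taken by symbol from a list drawn up with earlier results of these data known, so that their counts are not those of an unselected set. All 10 were found among the 55487 genes of the RNA-sequencing files, and all 10 were among the 17875 genes with enough counts to be tested.

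Crypts are the epithelial pits of the intestine that hold stem cells, dividing progenitors, and Paneth cells. They were isolated from adult C57BL/6 mice by EDTA treatment of the small intestine without its distal part. The authors describe their fed and fasted mice as carrying Lgr5-EGFP, a fluorescent reporter of stem cells. Each of 19 mice gave 1 library. Chow was available ad libitum to 5 Nt+/+ and 4 Nt-/- mice, and another 5 Nt+/+ and 5 Nt-/- mice were given only water for 48 hours. Nt-/- mice lack neurotensin, a peptide hormone of intestinal endocrine cells, in every tissue, and the comparisons address how diet and this deletion act on crypts. The labels give 12 females, 6 males, and 1 mouse with no sex.

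The deleted gene, Nts, was at 4.98 to 8.59 CPM (read counts scaled to a common, effective library size) in mice titled Nt+/+ and at 0.145 to 0.793 CPM in mice titled Nt-/-. One fasted mouse, replicate 5 of the Nt+/+ group, carries a genotype label of Nt-/- against its title, and it was grouped by the title. Its Nts level was 5.43 CPM, above that of every mouse titled Nt-/-, as its title implies. The library totals ran from 9059418 to 35068669 counts with a median of 18541770, and the 2 smallest libraries were both of fasted Nt-/- mice. All 7 crypt base and all 6 Paneth cell markers were detected at testable levels, and the sum of 5 pancreatic acinar markers was at most 0.211 CPM in any mouse. Villus enterocyte markers were also present, at a summed 4193 to 14940 CPM.

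In the intestinal epithelium, acyl-CoA made from dietary fatty acid is the entry point to triglyceride synthesis and chylomicron export, and acyl-CoA made from stored or circulating fatty acid is the substrate of β-oxidation in mitochondria and peroxisomes. Synthetases sit on the endoplasmic reticulum, the outer mitochondrial membrane, and peroxisomes, so that the enzyme used helps set the route. Thioesterases also differ by compartment, and they limit the acyl-CoA pool and release coenzyme A for reuse.

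Levels were compared between genes on the TPM scale (shares of all transcripts, corrected for transcript length). Acsl5, the long-chain synthetase best known from the intestinal mucosa, had the highest TPM of the 10 genes in all 4 groups. With ad libitum feeding it stood at 332 ± 90.9 TPM in Nt+/+ mice (SD, n = 5) and at 367 ± 71.4 TPM in Nt-/- mice (SD, n = 4). The lowest of these Nt+/+ mice was replicate 1, at 208 TPM. Its 5 most counted genes held 17.4% of its counts, against at most 8.63% in any other mouse. TPM, as a share of all transcripts, is not adjusted for this. Slc27a4 and Slc27a2 followed in ad libitum–fed Nt+/+ mice with means of 73.2 and 53.9 TPM and overlapping ranges. Below them came Acot13 at 38.4 TPM, Acsl1 at 22.6 TPM, and Acsl3 at 15.3 TPM, and the ranges of these 3 genes did not overlap one another. Acot12, Acot1, Acot2, and Acsl4 made up the bottom of the order, between 4.92 and 1.48 TPM, with each range overlapping the next.

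Fasting raised most of the synthetases and, by far larger factors, the paired thioesterases Acot1 and Acot2. In Nt+/+ mice 6 of the 10 genes passed edgeR's quasi-likelihood test at an adjusted p under 0.05, all 6 higher when fasted, where 21.6% of all tested genes passed, 11.2% higher and 10.4% lower. In Nt-/- mice 7 of the 10 genes passed, all 7 higher, where 25.2% of all tested genes passed, 12.5% higher and 12.6% lower. The median log2 fold change of the 10 genes was 0.84 in Nt+/+ mice and 0.95 in Nt-/- mice, beside -0.01 and -0.02 over all tested genes. In bulk RNA, a change in the number of cells of a type and a change in RNA per cell cannot be told apart. The 2 comparisons use different mice. Mice of the fasted and ad libitum–fed groups did not overlap in CPM for 5 of the 10 genes in Nt+/+ mice, where 14.6% of all tested genes did not overlap, and for 7 of the 10 in Nt-/- mice, where 21.3% did not.

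**Figure D1:**
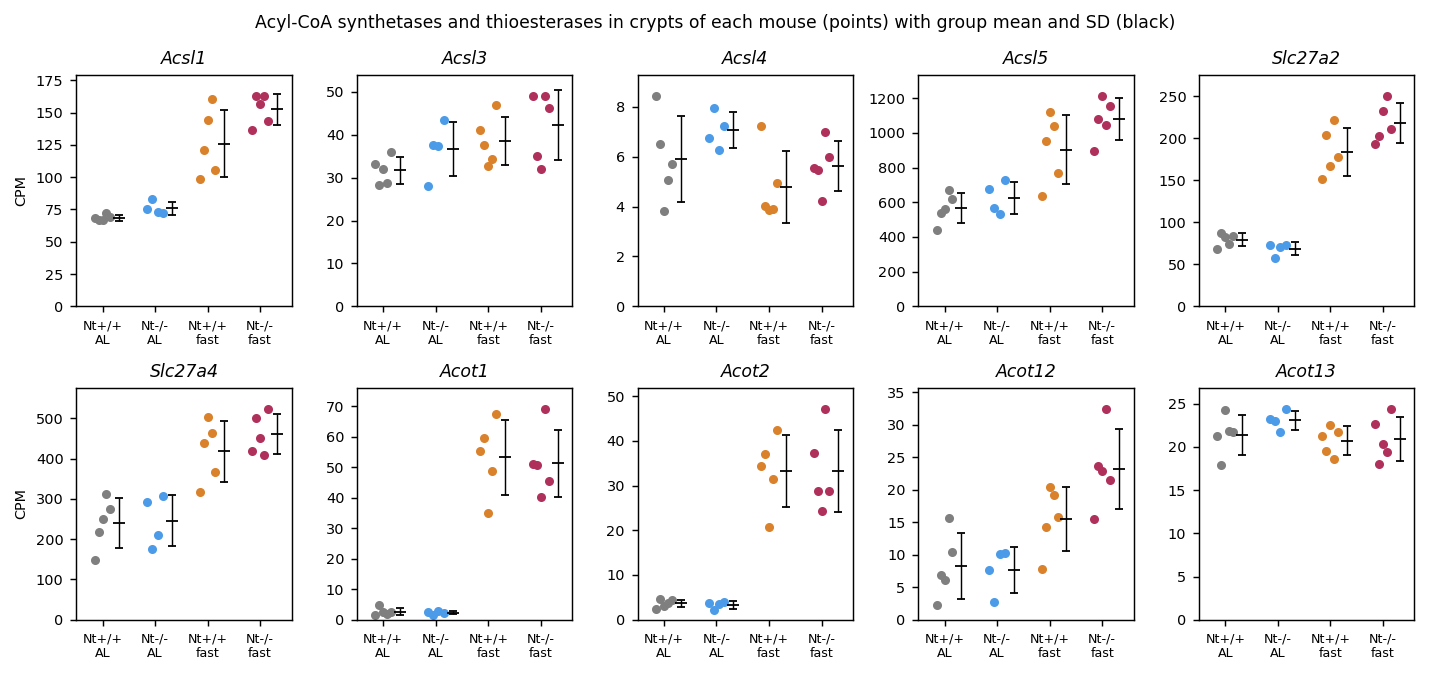
Level in CPM (linear axis from 0) of the 10 genes in each of 19 mice, with 1 panel per gene and the 4 groups along the horizontal axis (AL, ad libitum; fast, fasted); points are mice, and black marks are the group mean with its SD. Acot1 lay between 1.46 and 4.67 CPM in the ad libitum–fed mice and between 35.0 and 69.1 CPM in the fasted mice, while Acot13 lay between 17.9 and 24.4 CPM in all of them.

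Among the long-chain synthetases, Acsl1 and Acsl5 rose. Acsl1 supplies acyl-CoA for both oxidation and lipid synthesis in many tissues. Its gene lies on chromosome 8 (GRCm38, 46471037 to 46536051, plus strand). Acsl1 measured 68.1, 66.8, 67.0, 72.4, and 69.3 CPM in the 5 ad libitum–fed Nt+/+ mice and 98.9, 121, 145, 160, and 105 CPM in the 5 fasted Nt+/+ mice. The Nt-/- mice gave 75.5, 83.4, 72.9, and 71.9 CPM when fed ad libitum and 136, 163, 157, 163, and 143 CPM when fasted. Every fasted mouse was above every ad libitum–fed mouse of either genotype, and the ad libitum–fed Nt+/+ mice were tightly grouped, with an SD of 2.28 CPM against 25.9 CPM in the fasted Nt+/+ mice. The log2 fold change with fasting was 0.88 (SE, 0.10; edgeR adjusted p = 7.99e-06) in Nt+/+ mice and 1.01 (SE, 0.11; edgeR adjusted p = 3.48e-06) in Nt-/- mice.

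Acsl5 (chromosome 19, 55251938 to 55297720, plus strand) encodes an enzyme of mitochondria and endoplasmic reticulum. Its level in Nt+/+ mice was 443, 540, 560, 672, and 619 CPM when fed ad libitum and 635, 954, 1119, 1041, and 771 CPM when fasted. In Nt-/- mice the values were 676, 566, 531, and 731 CPM when fed ad libitum and 895, 1083, 1215, 1046, and 1154 CPM when fasted. The lowest fasted Nt+/+ mouse fell within the ad libitum–fed range, whereas the Nt-/- groups were apart. Acsl5 rose by a log2 fold change of 0.67 (SE, 0.15; edgeR adjusted p = 0.00262) in Nt+/+ mice and 0.78 (SE, 0.16; edgeR adjusted p = 0.00112) in Nt-/- mice. The annotation places Zdhhc6 on the opposite strand across part of Acsl5, Gm45244 across part of Acsl1, and the antisense gene 4833422C13Rik across part of Acot12, and the strand setting of the counting is not given in the sources used here, so reads from these partners may not be told apart.

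Acsl3 and Acsl4 did not pass the test with fasting in either genotype. Acsl3 (chromosome 1, 78657825 to 78707743, plus strand) is the synthetase of the endoplasmic reticulum and of growing lipid droplets. It spanned 28.3 to 36.0 CPM and 32.8 to 46.9 CPM in ad libitum–fed and fasted Nt+/+ mice, and 28.1 to 43.4 CPM and 32.0 to 49.1 CPM in the matching Nt-/- groups. The log2 fold change of Acsl3 was 0.28 (95% interval, -0.0029 to 0.57; edgeR adjusted p = 0.142) in Nt+/+ mice and 0.21 (95% interval, -0.09 to 0.51; edgeR adjusted p = 0.309) in Nt-/- mice. In Nt+/+ mice the interval just included 0, although the unadjusted p of edgeR's test was 0.0479. Of the 100-base stretches of Acsl3 transcripts, 2.43% also occur in Utp14b, which lies within the gene on the same strand.

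Acsl4 (X chromosome, 142317993 to 142390535, minus strand), which prefers arachidonic acid, was the lowest of the 10 genes per length in every group. It spanned 3.83 to 8.44 CPM and 3.86 to 7.24 CPM in ad libitum–fed and fasted Nt+/+ mice, and 6.26 to 7.96 CPM and 4.22 to 7.003 CPM in the Nt-/- groups. Its log2 fold change was -0.31 (95% interval, -0.74 to 0.13; edgeR adjusted p = 0.307) in Nt+/+ mice and -0.33 (95% interval, -0.78 to 0.13; edgeR adjusted p = 0.293) in Nt-/- mice. Both of these intervals include no change and also a fall larger than any rise they allow.

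Slc27a2 and Slc27a4 encode fatty acid transport proteins that couple the uptake of fatty acid to its activation. Slc27a2 (chromosome 2, 126552407 to 126588243, plus strand), known as a very-long-chain acyl-CoA synthetase of peroxisomes and endoplasmic reticulum, had the largest rise of the 6 synthetases. It measured 68.8, 87.8, 82.8, 73.9, and 83.8 CPM in ad libitum–fed Nt+/+ mice and 151, 204, 167, 222, and 177 CPM in fasted Nt+/+ mice. Among Nt-/- mice the values were 73.6, 57.8, 70.3, and 73.2 CPM when fed ad libitum and 194, 203, 233, 251, and 211 CPM when fasted. No ad libitum–fed mouse reached the level of the lowest fasted mouse. The log2 fold change was 1.21 (SE, 0.11; edgeR adjusted p = 1.99e-07), a 2.32-fold rise, in Nt+/+ mice and 1.67 (SE, 0.12; edgeR adjusted p = 9.90e-09), a 3.17-fold rise, in Nt-/- mice.

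Slc27a4 (chromosome 2, 29802634 to 29817522, plus strand) is the main transport protein of this family in enterocytes. It measured 148, 217, 251, 312, and 275 CPM in ad libitum–fed Nt+/+ mice and 316, 438, 503, 465, and 367 CPM in fasted Nt+/+ mice. Nt-/- mice were at 291, 175, 211, and 308 CPM when fed ad libitum and 419, 502, 450, 409, and 523 CPM when fasted. The Nt+/+ groups were apart by a narrow margin, 312 against 316 CPM, and the Nt-/- groups by a wider one. Slc27a4 rose by a log2 fold change of 0.80 (SE, 0.18; edgeR adjusted p = 0.00357) in Nt+/+ mice and 0.90 (SE, 0.19; edgeR adjusted p = 0.00194) in Nt-/- mice.

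**Figure D2:**
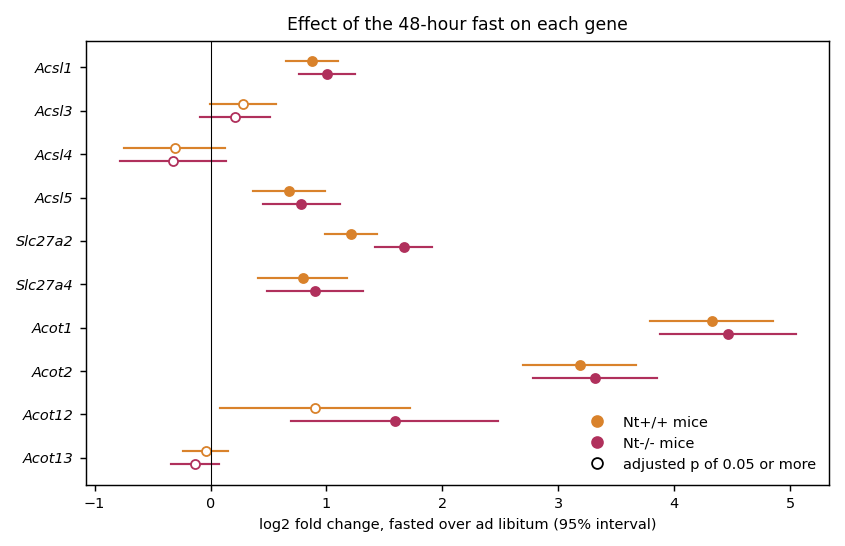
Log2 fold change of fasted over ad libitum–fed mice for the 10 genes (horizontal axis) with 95% intervals (lines), in Nt+/+ mice (orange) and Nt-/- mice (dark red); filled points have an edgeR adjusted p under 0.05. Acot1 (4.32 and 4.46) and Acot2 (3.18 and 3.31) lie far to the right of the synthetases, the highest of which is Slc27a2 (1.21 and 1.67), and the intervals of the genotypes overlap for every gene, by the least at Slc27a2.

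Acot1 and Acot2 are close paralogs that lie close together on the plus strand of chromosome 12, Acot2 at 83987861 to 83993873 and Acot1 at 84009490 to 84018371 (GRCm38). Acot1 is the cytosolic long-chain thioesterase and Acot2 its mitochondrial counterpart. The 250 bases before the RefSeq start of each gene (GRCm38.p6, plus strand) are shown because these neighbors moved together, with the same window of Acot12 for contrast. The starts of Acot1 and Acot12 lie a few bases inside the gene models given here. In the Acot12 window, capitals mark the closest match to a DR1 element, 2 copies of AGGTCA in the same direction with 1 base N between them, the kind of sequence that pairs of PPAR and RXR nuclear receptors bind. In the Acot1 and Acot2 windows no such match was found, so all letters are in lower case. The Acot1 window chr12:84009252-84009501, the Acot2 window chr12:83987611-83987860, and the Acot12 window chr13:91741271-91741520 read as follows.
Acot1: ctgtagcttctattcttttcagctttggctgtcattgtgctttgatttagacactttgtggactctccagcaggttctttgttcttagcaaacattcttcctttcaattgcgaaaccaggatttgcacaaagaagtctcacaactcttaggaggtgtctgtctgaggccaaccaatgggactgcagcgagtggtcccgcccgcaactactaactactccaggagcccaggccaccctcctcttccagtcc
Acot2: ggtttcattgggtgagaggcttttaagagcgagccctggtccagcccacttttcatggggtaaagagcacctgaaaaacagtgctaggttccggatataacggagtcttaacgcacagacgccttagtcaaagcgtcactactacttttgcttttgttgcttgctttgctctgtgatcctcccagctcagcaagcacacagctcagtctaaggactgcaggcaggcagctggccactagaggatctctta
Acot12: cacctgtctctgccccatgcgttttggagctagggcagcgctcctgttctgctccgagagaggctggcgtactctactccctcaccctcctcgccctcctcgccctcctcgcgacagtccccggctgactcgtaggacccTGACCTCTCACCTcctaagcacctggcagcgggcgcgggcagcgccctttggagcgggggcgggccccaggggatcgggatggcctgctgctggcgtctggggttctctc

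Both strands were searched for DR1 with at most 2 mismatches of the 12 letters that are not N, which 3.24% of 32851 RefSeq promoter windows of this length contain. Of the 9 genes with a promoter entry, Acot12 alone held a match, with 1 mismatch on the minus strand, and 0.484% of the windows contain a match this close or closer. Acot13 has no entry. A missing match says only that these letters are not in the window. The windows of Acot1 and Acot2 aligned over 217 positions, of which 128 (59%) were identical. The alignment allowed gaps, which are not counted in that share, and no unrelated pair of windows was aligned beside it. The value therefore does not show that the 2 promoters share sequence.

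Acot1 was low in ad libitum–fed mice and rose more than any other of the 10 genes with the fast. It measured 1.68, 4.67, 2.51, 1.93, and 2.37 CPM in ad libitum–fed Nt+/+ mice and 55.3, 59.5, 35.0, 48.7, and 67.5 CPM in fasted Nt+/+ mice. Nt-/- mice had 2.60, 1.46, 2.75, and 2.34 CPM when fed ad libitum and 50.9, 50.7, 40.1, 69.1, and 45.4 CPM when fasted. The lowest fasted mouse was several times above the highest ad libitum–fed mouse. The rise was 19.99-fold in Nt+/+ mice (log2 fold change, 4.32; SE, 0.25; edgeR adjusted p = 1.52e-09) and 22.0-fold in Nt-/- mice (log2 fold change, 4.46; SE, 0.27; edgeR adjusted p = 3.28e-09). The ad libitum–fed values rest on 27 to 105 counts per mouse, and without replicate 2, the highest ad libitum–fed Nt+/+ mouse, the log2 fold change in Nt+/+ mice was 4.65.

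Acot2 followed the same course. It measured 2.40, 4.58, 3.17, 3.71, and 4.30 CPM in ad libitum–fed Nt+/+ mice and 34.3, 37.1, 20.6, 31.5, and 42.3 CPM in fasted Nt+/+ mice. In the Nt-/- groups it was 3.81, 2.11, 3.42, and 3.89 CPM when fed ad libitum and 37.4, 28.8, 24.3, 47.2, and 28.7 CPM when fasted. Fasted and ad libitum–fed mice did not overlap in either genotype, and the fasted Nt+/+ mouse lowest for Acot1, replicate 3, was also the lowest for Acot2. The rise was 9.08-fold in Nt+/+ mice (log2 fold change, 3.18; SE, 0.23; edgeR adjusted p = 1.67e-08) and 9.95-fold in Nt-/- mice (log2 fold change, 3.31; SE, 0.25; edgeR adjusted p = 2.40e-08).

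Reads that fit both paralogs were divided between them by RSEM's model, so that the exact split is uncertain. Of the 100-base stretches of Acot1 transcripts, 12.4% also occur in another gene, mostly in Acot2 (9.32%), and of those of Acot2 17.1% occur in Acot1. When the counts of Acot1 and Acot2 were summed to 1 gene, the log2 fold change was 3.78 in Nt+/+ mice (edgeR adjusted p = 1.74e-09) and 3.90 in Nt-/- mice (edgeR adjusted p = 4.22e-09). When Acot1 to Acot6 were summed, it was 2.51 and 2.52 (edgeR adjusted p = 2.28e-08 and 5.52e-08), so the rise was present in the sum but much smaller than that of Acot1 alone.

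Acot12 (chromosome 13, 91741512 to 91786148, plus strand) encodes a cytosolic enzyme that hydrolyzes acetyl-CoA. It measured 2.26, 6.90, 6.14, 15.7, and 10.4 CPM in ad libitum–fed Nt+/+ mice and 7.76, 14.3, 20.5, 19.2, and 15.8 CPM in fasted Nt+/+ mice. The values of Nt-/- mice were 7.61, 2.76, 10.1, and 10.2 CPM when fed ad libitum and 15.4, 23.7, 22.9, 32.5, and 21.5 CPM when fasted. The groups overlapped in Nt+/+ mice and were apart in Nt-/- mice. Acot12 rose in Nt-/- mice (log2 fold change, 1.59; SE, 0.42; edgeR adjusted p = 0.00842), and its log2 fold change of 0.90 in Nt+/+ mice did not pass (SE, 0.38; edgeR adjusted p = 0.101). The difference between these effects was 0.68 (SE, 0.56; edgeR adjusted p = 1.00), so the genotypes were not shown to differ. Without the ad libitum–fed Nt+/+ replicate 4, at 15.7 CPM, the rise in Nt+/+ mice was 1.27 and passed (edgeR adjusted p = 0.0253). The rise was 0.98 and passed when the number in the titles was fitted as a replicate block (edgeR adjusted p = 0.0204). With that block 5006 genes of the whole table passed, against 3862 without it.

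Acot13 (chromosome 13, 24817948 to 24831540, minus strand), a long-chain thioesterase associated with mitochondria, varied the least of the thioesterases. It spanned 17.9 to 24.2 CPM and 18.6 to 22.6 CPM in ad libitum–fed and fasted Nt+/+ mice, and 21.7 to 24.4 CPM and 18.04 to 24.4 CPM in the Nt-/- groups. Its log2 fold change was -0.04 (95% interval, -0.24 to 0.15; edgeR adjusted p = 0.792) in Nt+/+ mice and -0.13 (95% interval, -0.34 to 0.07; edgeR adjusted p = 0.349) in Nt-/- mice. These intervals lie within a much smaller range than the rises of Acot1 and Acot2.

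The thioesterases changed in makeup as well as in amount. In Nt+/+ mice the summed TPM of the 4 genes was 49.2 ± 7.24 when fed ad libitum and 127 ± 17.3 when fasted (SD, n = 5 each). The Nt-/- groups had 49.7 ± 6.06 (SD, n = 4) and 134 ± 22.6 TPM (SD, n = 5). In ad libitum–fed mice Acot13 was the bulk of the sum, with a mean share of 78.7% in Nt+/+ and 82.8% in Nt-/- mice. After the fast its share was 28.7% and 28.3%, and Acot1 made up 52.4% and 49.7%. Acot1 went from below Acot13 to above it in all 10 fasted mice, with fasted ranges of 43.8 to 91.2 TPM for Acot1 and 33.6 to 42.9 TPM for Acot13.

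Acot1 also outgrew Acot2 on this scale. The ratio of Acot1 to Acot2 TPM was 1.39 to 2.82 in ad libitum–fed and 3.80 to 4.30 in fasted Nt+/+ mice, and 1.24 to 2.45 and 3.51 to 4.29 in the matching Nt-/- groups. The ranges did not overlap, although the ad libitum–fed ratios rest on low counts and on RSEM's division of shared reads.

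The synthetases rose with less change in makeup. In Nt+/+ mice the summed TPM of the 6 genes was 499 ± 122 when fed ad libitum and 819 ± 195 when fasted (SD, n = 5 each). The Nt-/- groups had 530 ± 97.2 (SD, n = 4) and 998 ± 170 TPM (SD, n = 5). Acsl5 provided a mean share of 66.2%, 69.1%, 62.3%, and 64.2% of the sum in ad libitum–fed Nt+/+, ad libitum–fed Nt-/-, fasted Nt+/+, and fasted Nt-/- mice. The share of Slc27a2 was 11.1% and 8.75% in ad libitum–fed Nt+/+ and Nt-/- mice and 15.0% and 14.7% in the fasted groups. Slc27a4 was 1.35 times Slc27a2 per length in ad libitum–fed Nt+/+ mice and 1.02 times in fasted ones, with overlapping ranges of 0.965 to 1.93 and 0.925 to 1.34. In Nt-/- mice the ratio was 1.34 to 1.96 when fed ad libitum and 0.727 to 1.13 when fasted, and these ranges were apart.

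**Figure D3:**
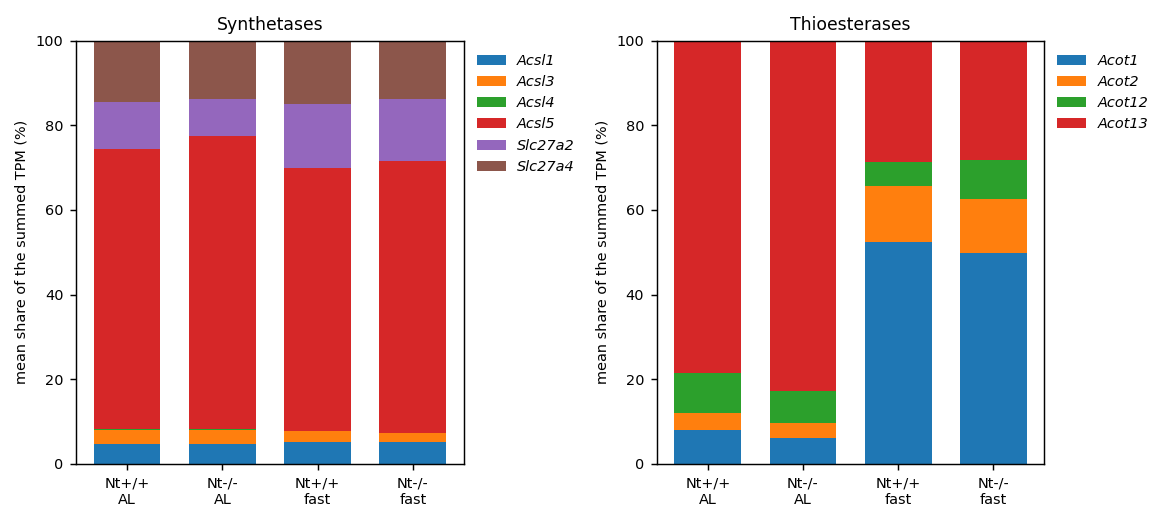
Mean share (%) of the summed TPM of the 6 synthetases (left) and of the 4 thioesterases (right) that each gene provided in the 4 groups; the shares were computed in each mouse and averaged. Acsl5 fills most of every synthetase bar, while among the thioesterases Acot13 fills 78.7% and 82.8% of the ad libitum bars and 28.7% and 28.3% of the fasted ones, and Acot1 fills 52.4% and 49.7% of the fasted bars.

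The deletion of neurotensin changed none of the 10 genes past the threshold. In ad libitum–fed mice 0 of 10 genes passed edgeR's quasi-likelihood test for Nt-/- against Nt+/+, where 0.00559% of all tested genes passed. An unadjusted p under 0.05 was reached by 0 of the 10, and by 299 of the 17875 tested genes. DESeq2 also called 0 of the 10, and 3 genes of the whole table. The log2 fold changes there ran from -0.21 for Slc27a2 to 0.25 for Acsl4. In fasted mice 0 of 10 genes passed edgeR's test, where again 0.00559% of all tested genes passed. An unadjusted p under 0.05 was reached by 2 of the 10, and by 1634 of the 17875 tested genes. DESeq2 called 0 of the 9 to which it gave an adjusted p, and 101 genes of the whole table. The log2 fold changes ran from -0.06 for Acot1 to 0.57 for Acot12.

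The 2 genes with an unadjusted p under 0.05 in fasted mice were Acsl1 and Slc27a2, both with a higher mean in Nt-/- mice. Acsl1 was 153 ± 12.03 CPM in fasted Nt-/- and 126 ± 25.9 CPM in fasted Nt+/+ mice (SD, n = 5 each), and the log2 fold change was 0.27 (SE, 0.10; unadjusted p = 0.0154; edgeR adjusted p = 0.400). Slc27a2 was 218 ± 23.4 CPM in fasted Nt-/- and 184 ± 28.5 CPM in fasted Nt+/+ mice (SD, n = 5 each), and the log2 fold change was 0.24 (SE, 0.10; unadjusted p = 0.0295; edgeR adjusted p = 0.472). The ranges of the genotypes overlapped for both genes.

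The effect of fasting did not differ between the genotypes past the threshold for any of the 10 genes. For this difference 0 of 10 genes passed edgeR's quasi-likelihood test, 1 had an unadjusted p under 0.05 (as did 485 of the 17875 tested genes), and DESeq2 called 0, where 0% of all tested genes passed. That gene was Slc27a2, whose rise was larger in Nt-/- mice by 0.45 on the log2 scale (SE, 0.15; 95% interval, 0.13 to 0.78; unadjusted p = 0.00779; edgeR adjusted p = 1.00). For Acot1 the difference was 0.14 (95% interval, -0.61 to 0.89) and for Acot2 it was 0.13 (95% interval, -0.55 to 0.82). Both intervals include no difference as well as differences in either direction.

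Related genes of the same reactions moved in both directions. Of 18 other acyl-CoA synthetases, 13 were tested, and 6 passed with fasting in Nt+/+ mice, 3 higher and 3 lower, and 7 in Nt-/- mice, 3 higher and 4 lower. Over all tested genes 21.6% passed in Nt+/+ mice and 25.2% in Nt-/- mice. Slc27a1, a fatty acid transport protein best known from muscle and fat, rose by a log2 fold change of 0.99 (SE, 0.11; edgeR adjusted p = 5.02e-06) in Nt+/+ mice and 0.63 (SE, 0.12; edgeR adjusted p = 7.29e-04) in Nt-/- mice. Acsm5, a mitochondrial medium-chain synthetase, rose by 1.36 (SE, 0.30; edgeR adjusted p = 0.00260) and 1.79 (SE, 0.32; edgeR adjusted p = 4.08e-04). Aacs, which activates acetoacetate for lipid synthesis, fell by 0.50 on the log2 scale (SE, 0.16; edgeR adjusted p = 0.0266) and by 0.87 (SE, 0.17; edgeR adjusted p = 7.91e-04), against the direction of the 4 listed synthetases that rose. Acsf2, a mitochondrial medium-chain synthetase, fell by 0.33 (SE, 0.11; edgeR adjusted p = 0.0426) and 0.53 (SE, 0.12; edgeR adjusted p = 0.00332).

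Of 14 other thioesterases, 10 were tested and 4 passed in each genotype, all higher when fasted, where 11.2% and 12.5% of all tested genes passed as higher. Acot4 and Acot6, peroxisomal members of the family of Acot1 and Acot2, rose by log2 fold changes of 1.40 and 1.18 in Nt+/+ mice (edgeR adjusted p = 2.18e-05 and 1.18e-04) and 1.57 and 1.07 in Nt-/- mice (edgeR adjusted p = 1.17e-05 and 4.17e-04). Acot8, another peroxisomal thioesterase, rose by 0.52 and 0.42 (edgeR adjusted p = 1.84e-04 and 0.00158). Baat, which conjugates bile acids and has thioesterase activity, rose by 1.42 and 1.80 (edgeR adjusted p = 0.00276 and 5.02e-04) from a mean of 0.665 CPM in ad libitum–fed Nt+/+ mice, a level near the lower end of what was tested. The other 6 tested thioesterases did not pass in either genotype.

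Of 6 acyl-CoA binding proteins, which carry acyl-CoA between these enzymes, 5 were tested, and 1 passed in Nt+/+ mice and 2 in Nt-/- mice, all higher. With 21.6% and 25.2% of all tested genes passing, counts this small do not set the list apart. Acbd6 rose by a log2 fold change of 0.25 in Nt+/+ and 0.29 in Nt-/- mice (edgeR adjusted p = 0.0399 and 0.0201). Acbd5, a protein of the peroxisomal membrane, had values of 0.03 and 0.24 (edgeR adjusted p = 0.846 and 0.0497). Dbi, the most abundant carrier of acyl-CoA in many cells, had values of 0.19 and 0.21 (edgeR adjusted p = 0.0574 and 0.0516), and Acbd4 had values of 0.35 and 0.33 (edgeR adjusted p = 0.0662 and 0.0929). None of the genes of these 3 lists passed in a comparison of the genotypes or for the difference between the effects of fasting.

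**Figure D4:**
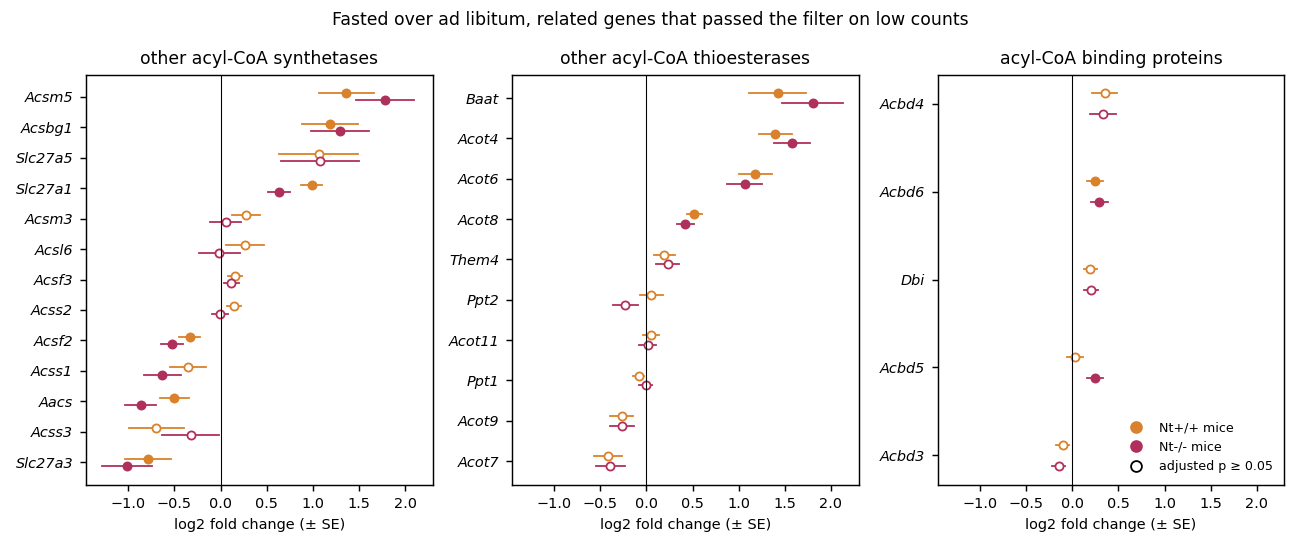
Log2 fold change with SE of fasted over ad libitum–fed mice for the 13 other synthetases, 10 other thioesterases, and 5 acyl-CoA binding proteins that were tested, in Nt+/+ (orange) and Nt-/- mice (dark red); filled points have an edgeR adjusted p under 0.05. Called thioesterases lie to the right of 0 in both genotypes, called synthetases lie on both sides, and the highest binding protein value is 0.35 for Acbd4.

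Markers of mature villus enterocytes moved with fasting as well. In Nt+/+ mice 6 of the 10 markers on that list passed, all higher, with log2 fold changes of all 10 between 0.34 and 1.31, and in Nt-/- mice 9 of 10 passed, all higher, between 0.44 and 1.87. As higher when fasted, 11.2% and 12.5% of all tested genes passed. Their summed level was 4193 to 7759 CPM in ad libitum–fed and 6692 to 11470 CPM in fasted Nt+/+ mice, and 5705 to 8344 CPM and 11290 to 14940 CPM in the Nt-/- groups. The part of these cells in the changes of the 10 genes was not tested. Between fasted Nt-/- and Nt+/+ mice 10 of the 10 markers had a log2 fold change above 0, 4 with an unadjusted p under 0.05 and 0 past the adjusted threshold. Of the 10 genes described here 9 were above 0, all but Acot1, and 2 had an unadjusted p under 0.05. Over all tested genes 47.3% were above 0, and 1634 of 17875 had an unadjusted p under 0.05.

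Set against the summed villus markers of the same mouse, a description added after the values were seen, the 10 genes fell into different patterns. The markers in that sum themselves rose by unequal amounts, log2 fold changes of 0.34 to 1.31 in Nt+/+ and 0.44 to 1.87 in Nt-/- mice. A gene of unchanged CPM therefore falls on this scale, which is not a correction for the number of enterocytes. Overlap on it was not computed for all tested genes. Acot1 was 0.413 ± 0.160 CPM per 1000 CPM of villus markers in ad libitum–fed and 6.00 ± 2.64 in fasted Nt+/+ mice (SD, n = 5 each), and Acot2 was 0.566 ± 0.0756 and 3.75 ± 1.66 on that scale. Slc27a2 was 12.8 ± 2.49 and 19.7 ± 3.84 in the same groups, and in Nt-/- mice 9.73 ± 1.73 (SD, n = 4) and 16.6 ± 2.89 (SD, n = 5), with ranges that overlapped in Nt+/+ mice and were apart in Nt-/- mice. Acsl5, by contrast, was 89.5 ± 9.98 and 94.5 ± 7.98 in Nt+/+ mice and 87.5 ± 5.29 and 81.4 ± 5.95 in Nt-/- mice. Acsl1 was 11.2 ± 2.89 and 13.3 ± 1.69 in Nt+/+ mice and 10.8 ± 2.16 and 11.6 ± 1.41 in Nt-/- mice. Slc27a4 was 37.2 ± 3.82 and 44.1 ± 4.76 in Nt+/+ mice and 34.1 ± 5.199 and 34.8 ± 2.64 in Nt-/- mice, so that for these 3 synthetases the ranges of the diets overlapped in each genotype on this scale, and for Acot1 and Acot2 they did not. Acot12 was 1.204 ± 0.566 and 1.61 ± 0.408 in Nt+/+ mice and 1.09 ± 0.5678 and 1.77 ± 0.555 in Nt-/- mice, with overlapping ranges. The remaining 3 genes had lower means in the fasted mice on this scale. Acot13 was 3.49 ± 1.01 and 2.29 ± 0.732 in Nt+/+ mice and 3.27 ± 0.461 and 1.60 ± 0.309 in Nt-/- mice. Acsl4 was 1.01 ± 0.578 and 0.557 ± 0.327 in Nt+/+ mice and 1.001 ± 0.181 and 0.434 ± 0.116 in Nt-/- mice, and for both genes the diets overlapped in Nt+/+ mice and were apart in Nt-/- mice. In CPM the diets overlapped for both genes in Nt-/- mice, whereas the villus sum that they are divided by did not. Acsl3 was 5.196 ± 1.65 and 4.34 ± 1.77 in Nt+/+ mice and 5.24 ± 1.34 and 3.27 ± 0.989 in Nt-/- mice, with overlapping ranges.

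The other marker lists differed in direction. Crypt base markers passed for 2 and 3 of 7 genes in Nt+/+ and Nt-/- mice, each called gene lower. They did not move as 1 set: 3 and 1 of the 7 had a log2 fold change above 0. In Nt+/+ mice their values ran from -0.63 to 0.63. Goblet cell markers passed for 2 and 4 of 6, each called gene lower, with 2 of the 6 above 0 in each genotype. Among all tested genes 21.6% and 25.2% passed. Paneth cell markers passed for 0 and 1 of 6, the latter lower, and enteroendocrine markers for 1 and 2 of 6. Tuft, immune, and stromal markers passed for 0 of 4, 0 of 8, and 0 of 6 tested genes in each genotype. Of 4 adipocyte markers only Cidec, named here after its values were seen, was tested, and it rose by log2 fold changes of 1.15 and 1.41 (edgeR adjusted p = 3.93e-04 and 8.96e-05). The summed level of the 4 adipocyte markers was 6.09 to 10.5 CPM in ad libitum–fed and 11.9 to 23.1 CPM in fasted Nt+/+ mice, and 6.66 to 12.6 CPM and 21.6 to 32.6 CPM in the Nt-/- groups. Of the 3 markers too low to test, none was at 0 in all ad libitum–fed Nt+/+ mice, and Adipoq, Lep, and Plin1 were all at 0 in ad libitum–fed Nt-/- mice. The sum of that last group was therefore Cidec alone. Lep alone was at 0 in all fasted Nt+/+ mice, and Adipoq and Lep in all fasted Nt-/- mice. The part of such cells in the results was not tested.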

How the data were processed

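RNA of intestinal crypts was sequenced from 19 mice as ribosomal RNA–depleted, single-end libraries. Per the labels, the authors trimmed reads with Trimmomatic 0.39 and quantified GRCm38 transcripts with RSEM, whose version and strand setting are not given in the sources used here. The deposited files hold, for each gene, RSEM's expected count (not normalized; reads that fit several genes are divided by a model). The authors also deposited TPM, which RSEM made from those counts by correcting for transcript length and scaling each library to the same sum.

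Expected counts were rounded and tested with edgeR 4.0.16 in R 4.3.3: TMM normalization, filterByExpr, 1 coefficient for each of 4 groups, no covariate, 15 residual degrees of freedom, the quasi-likelihood test, and Benjamini-Hochberg adjustment over 17875 genes. A gene was called at an adjusted p under 0.05. Standard errors were obtained from the log2 fold change and the F statistic. CPM uses TMM library sizes. TPM served for levels, shares, and ratios only, and no test was run on it. Symbols and positions came from the GENCODE annotation of GRCm38, matched by gene ID for 55227 of 55487 genes, and promoter windows from RefSeq (GRCm38.p6), matched by symbol. Windows were aligned with Biopython 1.88. The test code was checked on simulated data.

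Groups follow the titles. The rule for named genes took all 10 members, up to 4 genes with the smallest p in either fasting comparison from each of 3 related lists, Nts, and marker lists as counts. The members and the lists were chosen with earlier results of these data known. Alternatives were other filters, upper quartile and relative log expression normalization, DESeq2 1.42.0, replicate blocks, the mouse with disagreeing labels as Nt-/-, sex as a covariate, only the groups compared, each mouse left out, summed paralogs, and, chosen after seeing the depths, leaving out the 2 smallest libraries. Depth ran from 9059418 to 35068669 counts, and the lowest member count in a mouse was 27.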

Additional observations from a re-analysis of the deposited data

Results flagged for a closer look

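Acot1 in the ad libitum–fed Nt+/+ replicate 2, at 4.67 CPM, stood apart from the other 4 mice of its group, which lay between 1.68 and 2.51 CPM. Its gap to the nearest mouse was 0.722 of the group's range, just above the 95% limit of Dixon's test for 5 samples. The 10 genes in 4 groups gave 40 such checks, of which chance sets apart about 1 in 20. Without this mouse the log2 fold change of Acot1 with fasting in Nt+/+ mice was 4.65 in place of 4.32. Acot2 was also highest of its group in that mouse, at 4.58 CPM, but was not set apart.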

How the results depend on the processing

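No call of the fasting comparisons was lost in any alternative, with each mouse left out in turn included. The only gain was Acot12 in Nt+/+ mice, where 6 called genes became 7 with the replicate block of the titles (log2 fold change, 0.98; edgeR adjusted p = 0.0204), with that of the file names (0.98; edgeR adjusted p = 0.0185), and without the ad libitum–fed Nt+/+ replicate 4 (1.27; edgeR adjusted p = 0.0253). In the same order, these alternatives called 5006, 5484, and 3473 genes of the whole table, against 3862 in the main test. The gain with the blocks therefore came with more calls among all genes. Over its alternatives the adjusted p of Acot12 in Nt+/+ mice ran from 0.0185 to 0.199, and in Nt-/- mice from 0.00172 to 0.0444. Between genotypes, and for the difference in the fasting effect, there were 0 called genes in every alternative, replicate blocks included. With DESeq2, 101 genes of the whole table passed between fasted Nt-/- and Nt+/+ mice, against 1 with edgeR, and in ad libitum–fed mice 3 against 1. The numbers of the titles and files may or may not pair mice: deviations of 27 same-numbered pairs correlated with a mean r of 0.184 (titles; 19 pairs over 0.1) and 0.227 (file names; 24 pairs over 0.1), against -0.046 and -0.057 in 108 other pairs, and the labels do not say what the numbers mean.

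Some values that were not called changed sign, and the cause was not tested. Of the values between ad libitum–fed genotypes, 8 changed sign with 1 mouse left out and 4 in other alternatives. Between fasted genotypes 9 and 8 values changed sign, and for the difference between the effects of fasting 14 and 7 did. Acot12 between ad libitum–fed genotypes ran from -0.35 to 0.25 in place of -0.11. Acot13 with fasting in Nt+/+ mice ran from -0.10 to 0.0051 with 1 mouse left out. Acot1 between fasted genotypes was 0.12 with the mouse of disagreeing labels as Nt-/-, 0.075 with Acot1 to Acot6 summed, and -0.19 to 0.044 with 1 mouse left out. The difference for Acsl1 was -0.0046 with that mouse as Nt-/-, and for Acot13 0.0020 without the 2 smallest libraries. Depth was low for Acot1, with as few as 27 counts in a mouse, and for Acot2 (39), Acot12 (47), and Acsl4 (48).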
